A study of Mus musculus with 6 samples.

Results

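The JAK-STAT genes described here are 4 Janus kinases (Jak1, Jak2, Jak3 and Tyk2), 4 STAT transcription factors (Stat3, Stat5a, Stat5b and Stat6) and 2 inhibitors of the pathway (Socs2 and Cish). They were chosen by gene symbol, and all 10 were found among the 21878 rows that each library lists. RNA-seq was performed on hematopoietic stem cells (HSCs) sorted from mouse bone marrow (BM) by the surface phenotype CD34-Flk2-Lineage-Sca1+c-Kit+. The study asked how a short exposure to insulin-like growth factor 1 (IGF1), a growth factor that megakaryocytes release after irradiation, alters HSCs. The control group comprised 3 libraries from vehicle-treated mice, and the IGF1 group 3 libraries from mice at day 1 after a single subcutaneous dose of recombinant mouse IGF1. All 6 libraries were from wild-type mice, C57BL/6 by the study's methods, and no library carried an engineered allele. The labels do not agree on the treatment, because the note on RNA extraction speaks of irradiated mice while the treatment field names IGF-1. The groups used here follow the treatment field and the titles. The age of the mice, and whether a library pooled several of them, were not given in the sources used here.

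Cytokine receptors of the type I and type II families have no kinase of their own and carry JAKs on their inner side. When a cytokine brings the receptor chains together, the JAKs phosphorylate each other, the receptor and then STATs, which pair, enter the nucleus and bind DNA. SOCS proteins and CISH are made in response and damp the signal, and in HSCs and their progeny the pathway carries the signals of many hematopoietic cytokines. The receptor of IGF1 is itself a tyrosine kinase and works mainly through the PI3K, AKT and mTOR route.

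Control replicate 2 stood apart from the other controls and lay closer to the IGF1 libraries. Whether its label is right, or its material was mixed, was not tested, and each control mean, fold change and error below that includes it depends on this. Expression was deposited as FPKM, the number of fragments on a gene per unit of gene length and per unit of library depth. Whole reads could be recovered from these values for 99.9% of the 15640 genes above 0, which put the libraries at about 10300000 to 15100000 reads on listed genes, with 10500000 in control replicate 2. Between control replicates 1 and 3 the chi-squared per gene was 1.511, and between IGF1 libraries it was 1.678 to 1.858, where 1 is the noise of counting alone. Between control replicate 2 and the other controls it was 220 to 222, and between control replicate 2 and the IGF1 libraries 23.5 to 26.6. Over the 10 JAK-STAT genes it was 0.84 between control replicates 1 and 3 and 1.0 to 1.74 between IGF1 libraries. For control replicate 2 it was 394 to 399 over these genes against the other controls, and 8.58 to 12.4 against the IGF1 libraries. The labels do not say that the libraries of a group came from separate animals, so p-values measure the spread between these libraries, which may be technical.

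The label of an HSC was checked against marker genes. The 12 HSC markers summed to 493 to 733 FPKM in the controls and 480 to 496 FPKM in the IGF1 libraries, none was at 0, and Slamf1, Mecom, Fgd5 and Hoxb5 lay between 0.277 and 4.10 FPKM. Transcripts of both proteins that the sort excluded were present, with Cd34 at 230 to 640 FPKM and Flt3 at 117 to 188 FPKM. The 13 myeloid markers summed to 3660 to 6190 FPKM in the controls and 6180 to 6210 FPKM in the IGF1 libraries, with no marker at 0 in all libraries. This list did not move as one, since Elane, Prtn3 and Ctsg, of early granules, had higher means after IGF1, while S100a8, S100a9, Ngp and Camp, of later neutrophil stages, were called lower (log2 fold changes of -3.39 to -1.90). For 8 B cell markers the sums were 111 to 423 and 390 to 406 FPKM, and for 9 T and NK cell markers 361 to 781 and 772 to 792 FPKM. The 8 megakaryocyte markers summed to 59.6 to 79.7 and 98.5 to 109 FPKM, 10 erythroid markers to 69.3 to 124 and 67.0 to 72.1 FPKM, and 8 stromal markers to 18.1 to 36 and 21.9 to 23.2 FPKM, with Lum at 0 throughout. Most of the stromal sum was Pecam1, at 17.52 to 34.35 FPKM, and 7 of these 8 markers were under 1 FPKM in all libraries. Of the defining markers of mature cells, Cd3e, Cd3d, Ms4a1 and Pax5 stayed under 1 FPKM in all 6 libraries. In the summed myeloid and B cell markers, and in Nkg7, control replicate 2 lay with the IGF1 libraries, as it did in most JAK-STAT genes. In the summed erythroid and HSC markers it stood above all other libraries, at 124 and 733 FPKM. The part of these markers in the results was not tested.

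On the GRCm38 build, Stat3, Stat5a and Stat5b lie side by side on chromosome 11, at chr11:100885098-100939540 (minus strand), chr11:100859351-100885169 (plus strand) and chr11:100780731-100850724 (minus strand). The kinase genes are at chr4:101152367-101265282 for Jak1, chr19:29251828-29313080 for Jak2, chr8:71676296-71690575 for Jak3 and chr9:21104068-21131243 for Tyk2. Stat6 is at chr10:127642986-127660957, Socs2 at chr10:95385362-95417180 and Cish at chr9:107296026-107302784. Neighbouring gene models limit some values. Stat3 and Stat5a overlap by 72 bases on opposite strands, Tyk2 shares 24326 bases with the antisense gene 1700084C06Rik, and Cish shares 1459 bases with the antisense gene Gm17041. Jak3 overlaps Insl3 by 1362 bases on the same strand. The library kit kept the strand, but the strand setting of the counting was not given in the sources used here. Stat5a and Stat5b are paralogs, and 5.12% of the 75-base stretches of Stat5a transcripts also occur in Stat5b. No other pair of the 10 genes shares such a stretch.

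STAT5 dimers bind the palindrome TTCNNNGAA, and Cish is a textbook target of STAT5. RefSeq promoters (GRCm38.p6, 250 bases before to 50 after the start of transcription) were found for 9 of the genes. Of these genes 1, Cish, held the motif, against 8.3% of 32851 promoters of the same length. Cish held 2 copies, TTCCTGGAA at bases 1 to 9 and TTCTTGGAA at bases 12 to 20 counted from the start of transcription. At least 2 copies occurred in 0.457% of all promoters. The letters TTCNNNGAA read the same on both strands, so 1 search covered both, and a match is a description of the sequence, not evidence that a factor was bound. The stretch from 100 bases before to 30 after the start is shown for Cish (chr9:107296559-107296688, plus strand) and, for comparison, for the kinase gene Jak1 (chr4:101265194-101265323, minus strand). For Cish this stretch lies inside the gene model given above, which begins at base 107296026. The RefSeq start is thus not the first base of that model. Capitals mark the motif.
Cish: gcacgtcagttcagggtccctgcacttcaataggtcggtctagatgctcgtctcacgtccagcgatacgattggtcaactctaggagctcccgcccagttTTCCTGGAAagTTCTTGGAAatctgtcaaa
Jak1: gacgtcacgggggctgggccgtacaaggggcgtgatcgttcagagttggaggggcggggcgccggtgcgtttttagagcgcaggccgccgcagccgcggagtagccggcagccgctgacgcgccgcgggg

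The mean of each of the 10 JAK-STAT genes was lower after IGF1 than in the vehicle group, but none of the 9 that could be tested passed the thresholds of a fold change over 2 and an adjusted p under 0.05 in limma. These thresholds were passed by 4.63% of the 10449 genes tested as lower and by 1.98% as higher. At an unadjusted p under 0.05, 4 of the 9 genes passed (Jak1, Jak2, Tyk2 and Stat5a), as did 53.4% of all genes, and limma's voom on the recovered reads also called 0 of the 9. Log2 fold changes were taken on log2(FPKM + 1), which understates differences of low genes, and the median over the 9 genes was -0.62 against -0.18 for all genes tested. With control replicate 2 left out, Jak1, Jak2, Jak3 and Stat6 passed as lower, 4 of 9, where 20.6% of all genes passed as lower and 12.3% as higher, and the medians were -0.92 and -0.24. When 75th percentile scaling, TMM scaling or quantile normalization was added, 1 of these 4, Jak1, still passed. In bulk RNA of sorted cells, fewer cells of a type and less RNA per cell cannot be told apart.

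**Figure D1:**
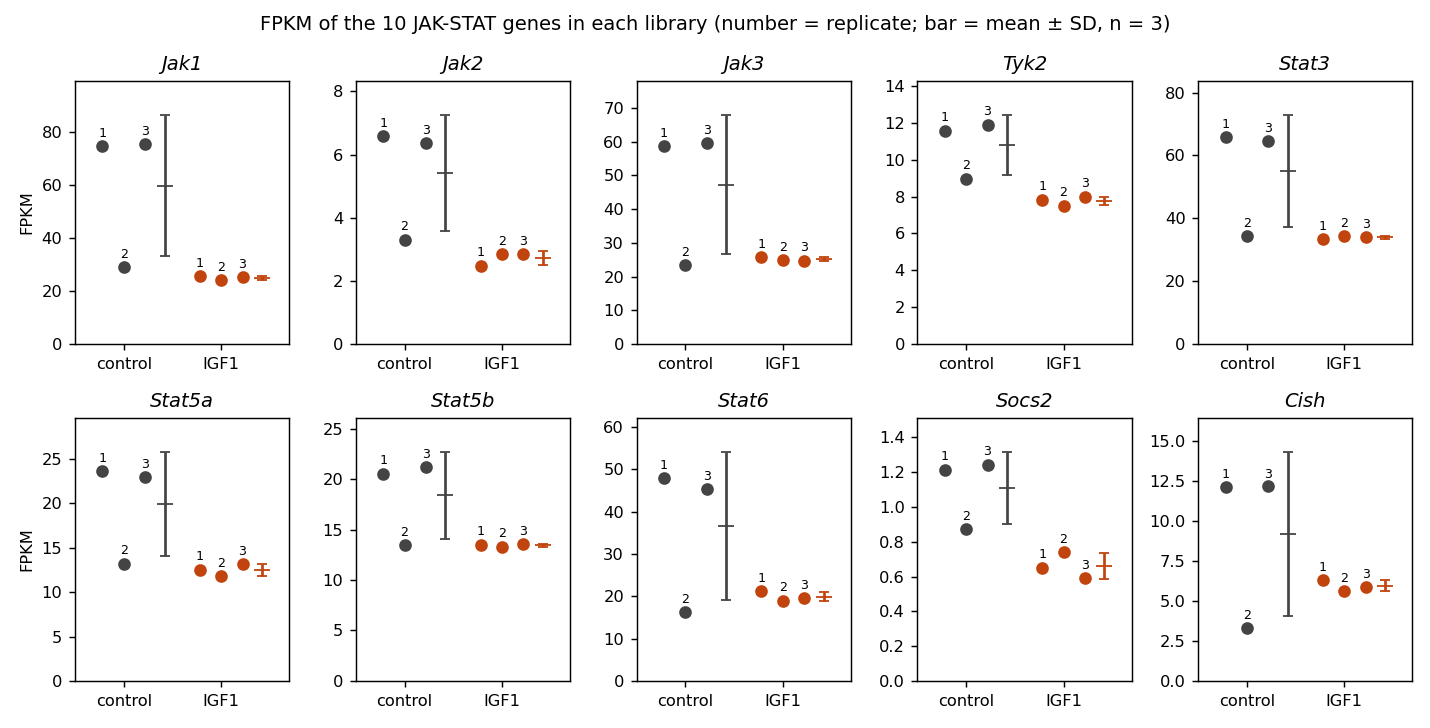
FPKM of the 10 JAK-STAT genes (vertical axes, each from 0) in the 3 control libraries (grey) and the 3 IGF1 libraries (orange), numbered by replicate, with the mean ± SD of each group (n = 3) beside the points. In every panel control replicates 1 and 3 lie close together at the top, and control replicate 2 lies near or below the IGF1 libraries, except in Tyk2 and Socs2, where it lies between.

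Jak1, the kinase shared by the gp130, common gamma chain and interferon receptors, had the largest difference of the 9 tested genes, except with length and GC trends removed, where Jak3 differed more (-1.03 against -0.91, and -1.46 against -1.28 without control replicate 2). Values are given here and below in the order of replicates 1, 2 and 3, and for Jak1 the controls held 74.6, 29.1 and 75.4 FPKM and the IGF1 libraries 25.6, 24.1 and 25.4 FPKM. The groups did not overlap, although control replicate 2, at 29.1 FPKM, was far below the other controls and close to the IGF1 values. The means were 59.7 ± 26.5 and 25 ± 0.805 FPKM (SD, n = 3), and the log2 fold change was -1.10 (standard error 0.37, 95% interval -2.01 to -0.19), with an adjusted p of 0.0673 from limma. Of the genes tested, 8.13% had a lower log2 fold change. With control replicate 2 left out, Jak1 fell by 1.55 on the log2 scale (standard error 0.04, adjusted p = 3.15e-10). Between 1517 and 6750 reads per library stood behind these values.

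Jak2, the kinase of the erythropoietin and interleukin-3 receptors, was far less abundant per length than Jak1. The controls held 6.58, 3.31 and 6.36 FPKM and the IGF1 libraries 2.48, 2.85 and 2.85 FPKM. Every control lay above every IGF1 library, with control replicate 2 the nearest to them. On the log2 scale the difference was -0.74 (standard error 0.24, 95% interval -1.33 to -0.15, adjusted p = 0.0625). It was -1.004 without control replicate 2 (standard error 0.07, adjusted p = 5.22e-07), just past the fold threshold. It missed that threshold under each of the 4 combinations of another scaling, or of length and GC trends removed, with control replicate 2 left out, at -0.80 to -0.60.

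Jak3, which works with the common gamma chain and is best known from lymphocytes, was nearly as abundant as Jak1. The controls held 58.7, 23.5 and 59.5 FPKM and the IGF1 libraries 25.8, 24.9 and 24.8 FPKM. Control replicate 2 lay below all 3 IGF1 libraries, so the groups overlapped. The log2 fold change was -0.77 (standard error 0.36, 95% interval -1.66 to 0.12, adjusted p = 0.126). Jak3 fell by 1.201 on the log2 scale once control replicate 2 was left out (standard error 0.04, adjusted p = 1.3e-09). With any of the 3 scalings added it was -0.96 to -0.86, short of the fold threshold.

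Tyk2, the kinase of the interferon alpha/beta and interleukin-12 receptors, differed least among the kinases, except with length and GC trends removed, where Jak2 differed less (-0.43 against -0.63, and -0.60 against -0.76 without control replicate 2). The controls held 11.6, 8.95 and 11.9 FPKM and the IGF1 libraries 7.80, 7.51 and 7.97 FPKM. The groups did not overlap, and control replicate 2 lay between them. The log2 difference was -0.42 (standard error 0.14, 95% interval -0.76 to -0.08, adjusted p = 0.0644). It was -0.54 without control replicate 2 (adjusted p = 7.7e-06), which is short of the fold threshold. Tyk2 had 435 to 977 reads per library, part of which may belong to its antisense gene.

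The kinase genes did not all keep their share of the summed kinase level. The FPKM of the 4 kinase genes summed to 151, 64.9 and 153 in the controls and to 61.6, 59.4 and 61.1 in the IGF1 libraries. Jak1 took 49.3%, 44.9% and 49.2% of that sum in the controls and 41.5%, 40.6% and 41.7% in the IGF1 libraries, with no overlap and control replicate 2 between. Jak3 took 38.7%, 36.2% and 38.9% against 41.8%, 41.9% and 40.6%, and here control replicate 2 was the farthest from the IGF1 libraries. The share of Jak2 was 4.15% to 5.1% against 4.03% to 4.8%, with overlap. Tyk2 took 7.64%, 13.8% and 7.74% in the controls and 12.7%, 12.7% and 13% in the IGF1 libraries. In the share of Tyk2 control replicate 2 lay above all 3 IGF1 libraries.

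Stat3, the main STAT of the gp130 and granulocyte colony-stimulating factor receptors, was the most abundant of the 4 STAT genes chosen. The controls held 65.8, 34.4 and 64.6 FPKM and the IGF1 libraries 33.4, 34.3 and 34.1 FPKM. Control replicate 2 lay within 0.2 FPKM of the highest IGF1 library and just above it, so the groups did not overlap. Stat3 thus had a log2 fold change of -0.62 with a standard error of 0.26 (95% interval -1.26 to 0.01, adjusted p = 0.098). Without control replicate 2 it was -0.92 (standard error 0.04, adjusted p = 4.67e-09), short of the fold threshold. Once the trends on length and GC content had been removed as well, it was -1.10 (adjusted p = 3.22e-09) and passed.

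Stat5a and Stat5b encode paralogous STATs that act downstream of JAK2. Stat5a measured 23.7, 13.2 and 23.0 FPKM in control HSCs against 12.5, 11.8 and 13.2 FPKM after IGF1. For Stat5b the values were 20.6, 13.4 and 21.2 FPKM against 13.5, 13.3 and 13.5 FPKM. Control replicate 2 lay with the IGF1 libraries in both genes, at 13.208 against a highest IGF1 value of 13.158 FPKM in Stat5a, where the groups did not overlap, and among the IGF1 libraries in Stat5b, where they did. The log2 fold change of Stat5a was -0.59 (standard error 0.23, 95% interval -1.16 to -0.02, adjusted p = 0.0867), and that of Stat5b was -0.40 (standard error 0.19, 95% interval -0.86 to 0.06, adjusted p = 0.125). Leaving out control replicate 2 gave -0.85 for Stat5a (adjusted p = 2.04e-07) and -0.60 for Stat5b (adjusted p = 8.23e-07), neither past the fold threshold. Because the transcripts share stretches, reads could have been split between these genes.

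Stat6, the STAT of the interleukin-4 receptor, had 47.9, 16.4 and 45.4 FPKM in the controls against 21.2, 19.0 and 19.6 FPKM after IGF1. Control replicate 2 was the lowest library of all. The log2 fold change was -0.70 (standard error 0.41, 95% interval -1.70 to 0.30, adjusted p = 0.19). When control replicate 2 was left out, Stat6 fell by 1.19 (standard error 0.05, adjusted p = 1.3e-08). With any of the 3 scalings added it was -0.95 to -0.85, short of the fold threshold.

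Cish, which encodes a STAT5-induced inhibitor, measured 12.1, 3.29 and 12.1 FPKM in control HSCs against 6.30, 5.61 and 5.87 FPKM after IGF1. Control replicates 1 and 3 lay above all IGF1 libraries and control replicate 2 below all of them. For Cish the log2 difference was -0.39 (standard error 0.45, 95% interval -1.49 to 0.72, adjusted p = 0.485), close to that of Stat5b. Without control replicate 2 it was -0.92 (standard error 0.06, adjusted p = 2.81e-07), short of the fold threshold. Its read counts were 834, 163 and 840 in the controls and 335, 273 and 325 in the IGF1 libraries.

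Socs2, which encodes a brake on growth hormone receptor signaling, was the scarcest of the genes. Control HSCs had 1.21, 0.871 and 1.24 FPKM and the IGF1 libraries 0.648, 0.739 and 0.590 FPKM. The groups did not overlap, with control replicate 2 between the others. It reached 1 FPKM in only 2 libraries and was therefore not among the genes tested, which needed 3. The mean of control replicates 1 and 3 alone was 1.23 FPKM against 0.659 FPKM after IGF1. With no filter on low values the log2 fold change was -0.34 (standard error 0.10, 95% interval -0.58 to -0.11, adjusted p = 0.0631). The lowest library held 90 reads, with an exact Poisson 95% interval of 72.4 to 111 reads that covers counting error only.

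**Figure D2:**
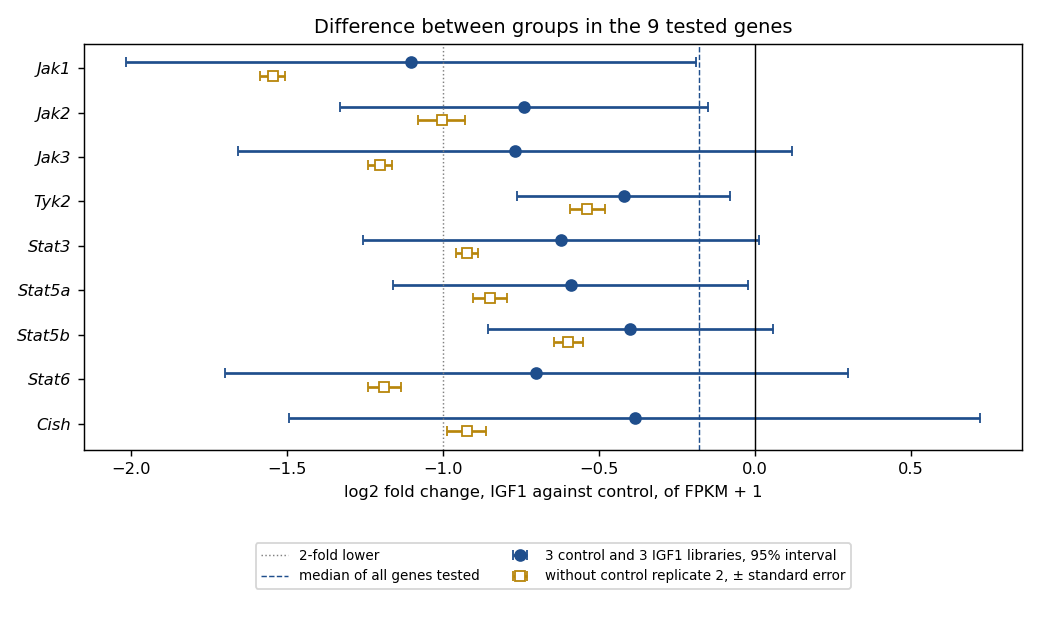
Log2 fold change of FPKM + 1, IGF1 against control (horizontal axis), for the 9 tested genes. Filled circles with 95% intervals use all 6 libraries and open squares with standard errors leave out control replicate 2, the dotted line marks 2-fold lower and the dashed line the median of all genes, -0.18. Each open square lies to the left of its circle, and 4 of them lie past the dotted line.

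Groups that did not overlap were found for 5 of the 9 tested genes (Jak1, Jak2, Tyk2, Stat3 and Stat5a), all lower in IGF1. Over all genes tested, 37.4% did not overlap with IGF1 lower and 21.9% with IGF1 higher. The place of control replicate 2 was set on a scale on which the mean of the other controls is 0 and the mean of the IGF1 libraries is 1. It was 0.66 for Tyk2, 0.79 for Jak2, 0.86 for Jak1, 0.91 for Stat5a and 0.98 for Stat3. Stat5b lay at 1.0, Jak3 at 1.08, Stat6 at 1.23 and Cish at 1.75, while the untested Socs2 lay at 0.59. Jak3, Stat6 and Cish were thus beyond the IGF1 mean in control replicate 2. The median over the 3438 genes called without control replicate 2 was 0.8, and 13.6% of them lay beyond the IGF1 mean.

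**Figure D3:**
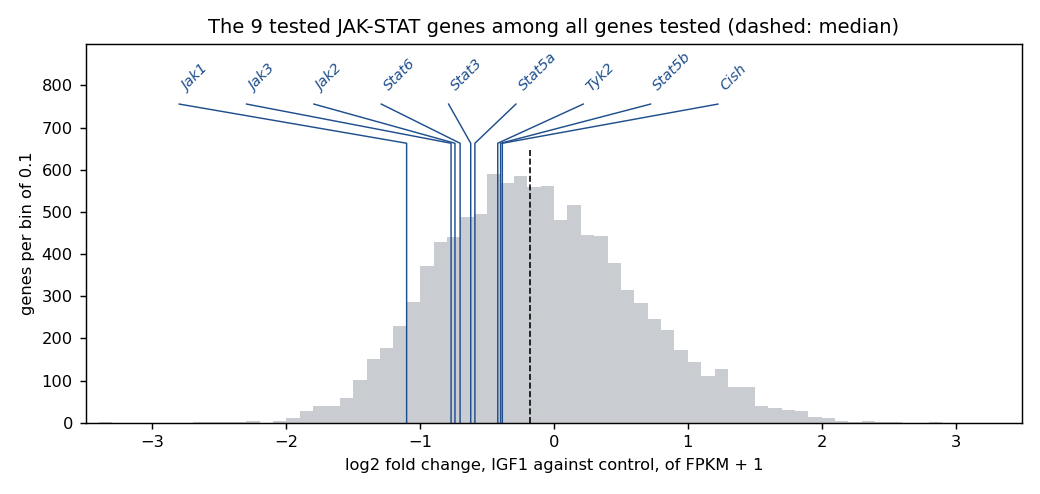
Number of genes (vertical axis) by log2 fold change of FPKM + 1, IGF1 against control (horizontal axis, bins of 0.1), for the 10449 genes tested, with the 9 tested JAK-STAT genes marked and the median of all genes, -0.18, dashed. All 9 marks lie left of the median, and 8.13% of genes lie left of Jak1.

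The direction held under every setting tried. Over 23 alternatives, 4 of them added after the data were seen, 206 of 206 log2 fold changes of the 9 genes were below 0. These values are not independent, since every alternative reuses the same libraries and keeps control replicate 1 or 3, which are high in each gene. Control replicate 2 alone was below the IGF1 mean in Jak3 (23.5 against 25.2 FPKM), Stat6 (16.4 against 19.9) and Cish (3.29 against 5.93), and level with it or above it in the other genes. Scaling between libraries made the fold changes smaller, since it moved the median of all genes from -0.18 to -0.02 with TMM scaling or quantile normalization and to 0.06 with 75th percentile scaling. The median of the 9 genes was then -0.44, -0.45 and -0.35, and all 9 lay below the median of all genes in each of the 3 scalings. The smallest values were those of Stat5b (-0.07), Cish (-0.08) and Tyk2 (-0.11) under quantile normalization. Jak1 stayed between -1.55 and -0.83.

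Expression per length was ordered differently in the groups. By group mean, the controls had Jak1 highest at 59.7 FPKM, then Stat3 at 55.0, Jak3 at 47.2 and Stat6 at 36.6 FPKM. Stat5a, Stat5b, Tyk2, Cish and Jak2 followed at 19.9 to 5.42 FPKM, and Socs2 came last at 1.11 FPKM. The ranges of neighbours in this order overlapped, apart from those of Stat5b and Tyk2 and of Jak2 and Socs2. Over control replicates 1 and 3 alone the order of means was the same but for Cish (12.1 FPKM), which came ahead of Tyk2 (11.7 FPKM). In the IGF1 libraries Stat3 was highest at 33.9 FPKM, then Jak3 at 25.2, Jak1 at 25 and Stat6 at 19.9 FPKM. Stat5b, Stat5a, Tyk2, Cish and Jak2 followed at 13.4 to 2.73 FPKM, ahead of Socs2 at 0.659 FPKM. There the ranges of Jak3 and Jak1 overlapped and those of all other neighbours did not.

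Ratios of genes within a library do not depend on how libraries are scaled, and 5 were compared by a 2-sided exact permutation test, whose smallest possible p with 3 libraries a group is 0.1. The ratio of Stat5b to Stat5a was 0.868, 1.02 and 0.922 in the controls and 1.08, 1.12 and 1.03 in the IGF1 libraries. It was higher in all 3 IGF1 libraries than in any control, by 0.20 on the log2 scale (exact permutation p = 0.1, adjusted over the ratios 0.333), and by 0.27 without control replicate 2. The ratio of Tyk2 to Jak1 was 0.155, 0.307 and 0.157 in the controls and 0.305, 0.312 and 0.313 in the IGF1 libraries, a log2 difference of 0.66 (exact permutation p = 0.2, adjusted 0.333). Only control replicate 2 among the controls reached the IGF1 level, and without it the difference was 0.99. The ratio of Stat3 to Stat5b differed by -0.21 (exact permutation p = 0.2, adjusted 0.333) and by -0.31 without control replicate 2. That of Jak2 to Jak1 differed by 0.20 (exact permutation p = 0.3, adjusted 0.375), which became 0.33 without control replicate 2, 0.12 without control replicate 3 and 0.36 for FPKM + 1. For Socs2 to Cish the controls had 0.1, 0.265 and 0.102 and the IGF1 libraries 0.103, 0.132 and 0.1. That log2 difference was -0.33 (exact permutation p = 0.9, adjusted 0.9), and it turned to 0.13 without control replicate 2.

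**Figure D4:**
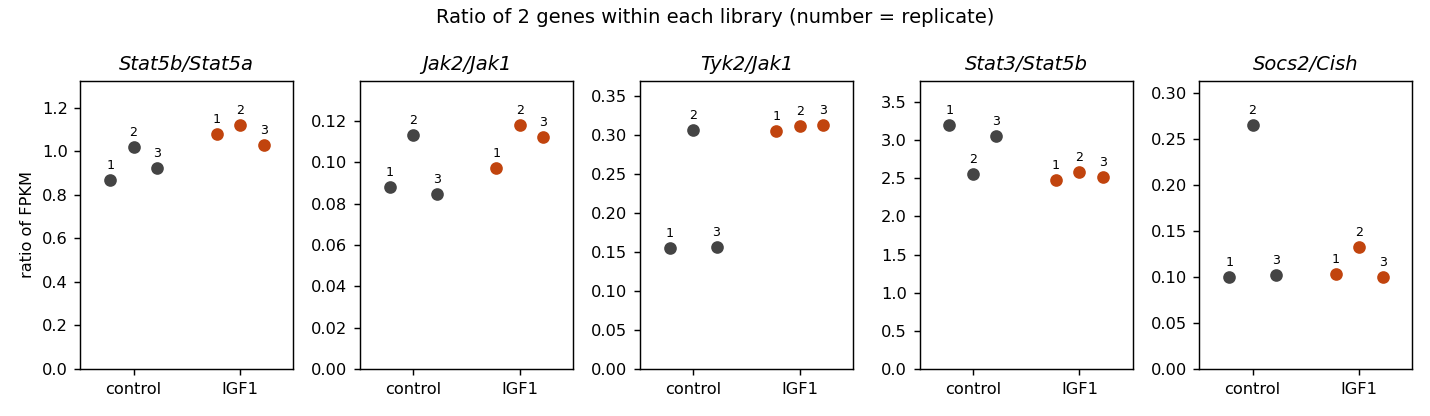
Ratio of the FPKM of 2 genes (vertical axes, each from 0) within each control library (grey) and IGF1 library (orange), numbered by replicate. In Tyk2/Jak1 control replicates 1 and 3 lie at 0.155 and 0.157 and the other 4 libraries at 0.305 to 0.313, and in Socs2/Cish control replicate 2 stands alone at 0.265.

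Over the 6 libraries the genes followed each other closely on the log2(FPKM + 1) scale. Jak3 with Stat5b and Stat3 with Stat5b had the highest Pearson r (0.997 each), and Socs2 with Cish the lowest (0.695). All pairs share the same 6 libraries and the same split of libraries, so these values are a description.

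The other genes of the pathway moved both ways. Lists of other STATs, other SOCS genes, further regulators, receptors, target genes and ligands held 89 genes, of which 65 could be tested. Of these 2 were called lower and 2 higher, beside 4.63% and 1.98% of all genes, and their median log2 fold change was -0.15. Groups did not overlap in 20 with IGF1 lower and in 10 with IGF1 higher, beside 37.4% and 21.9% of all genes. Without control replicate 2 the counts called were 18 lower and 3 higher of the 65, beside 20.6% and 12.3%, and the median was -0.30. With any other single library left out 0 of the 65 were called by limma, and 12 to 16 had an unadjusted p under 0.05, as did 2982 to 3205 of all 10449 genes.

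Pim2 and Pim1, which encode serine/threonine kinases induced by STAT5, were called in opposite directions. Pim2 fell from 86.2, 23.4 and 85.8 FPKM in control HSCs to 13.5, 14.3 and 14.4 FPKM after IGF1, by 1.92 on the log2 scale (standard error 0.51, adjusted p = 0.0483). Pim1 rose from 12.9, 23.8 and 14.1 to 34.8, 34.5 and 33.1 FPKM, by 1.02 (standard error 0.23, adjusted p = 0.0419). Ifngr1, which encodes the ligand-binding chain of the interferon gamma receptor and relies on JAK1, fell from 119, 55.0 and 117 to 36.7, 39.5 and 34.8 FPKM (-1.29, adjusted p = 0.0445). Il3ra, the alpha chain of the interleukin-3 receptor, rose from 2.70, 7.24 and 3.2 to 10.7, 10.5 and 11.2 FPKM (1.23, adjusted p = 0.0466). Control replicate 2 took a value between those of the groups' other libraries in each of the 4 genes. Leaving it out gave -2.53 for Pim2, 1.28 for Pim1, -1.65 for Ifngr1 and 1.58 for Il3ra.

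By role, no list other than those of receptors and targets held a called gene. The 25 tested receptors had a median log2 fold change of -0.40 (-0.52 without control replicate 2) and 15 tested target genes one of -0.09 (-0.19). Among 6 other SOCS genes the median was -0.71 (-1.05), and 15 further regulators had -0.37 (-0.54). The 3 other STATs had a median of 0.32 (0.43), with 1 of them, Stat4, below 0. Of 14 ligands only Il4 could be tested (0.01, and 0.41 without control replicate 2).

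**Figure D5:**
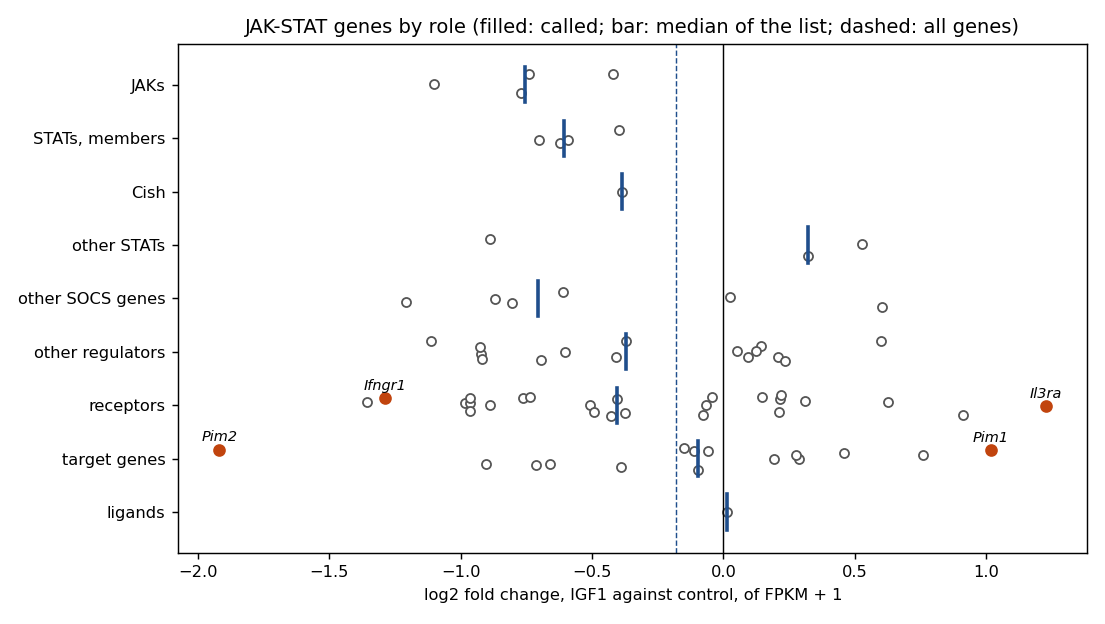
Log2 fold change of FPKM + 1, IGF1 against control (horizontal axis), of each tested JAK-STAT gene by role (rows). Filled points are called genes, named beside them, vertical bars are list medians and the dashed line is the median of all genes, -0.18. The JAK and chosen STAT rows lie wholly left of 0, while the receptor and target rows spread to both sides.

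Stat3 and Stat6 also took smaller shares of their family after IGF1 than in control replicates 1 and 3. Of the summed FPKM of 7 STAT genes, Stat3 took 29.4%, 20.7% and 29.4% in the controls against 20.6%, 21.5% and 21.2% after IGF1. Stat6 took 21.4%, 9.81% and 20.6% against 13.1%, 11.9% and 12.2%. In the share of Stat3 control replicate 2 lay among the IGF1 libraries, and in that of Stat6 it was the lowest of all. Stat5b differed little, with 9.18%, 8.07% and 9.62% against 8.32%, 8.32% and 8.41%.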

How the data were processed

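The authors trimmed the reads with fastp. The study's methods name RSEM and DESeq2 and no aligner, while the submitters' processing notes name HISAT2, StringTie and the builds GRCm38 and mm10. TruSeq Stranded libraries were sequenced on a NovaSeq. The deposited table of each library, made by the authors, gives every gene symbol 1 value, taken as FPKM because the values of a gene rise in whole steps that shrink with gene length (tolerance 0.03 of a read). DESeq2 needs counts, so it was not run.

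Genes that reached 1 FPKM in 3 or more libraries were compared on log2(FPKM + 1) with limma 3.58.1 (lmFit, eBayes with trend) in R 4.3.3, 2-sided, with Benjamini-Hochberg adjustment over all genes tested, and called at the study's thresholds (fold over 2, adjusted p under 0.05). TMM factors were computed on FPKM. The limma call and the chi-squared between libraries were tested on simulated data. The limma simulation held no outlying library such as control replicate 2. Positions, length and GC content came from GENCODE M21, with 96.7% of genes matched. The 10 genes and all lists were chosen with earlier results of these data known. Named were all 10 genes, each called gene of the other lists, and the most and least alike pairs. Alternatives covered scaling, filter, pseudocount, variance trend, call rule, library weights, voom on recovered reads, length and GC, a replicate block and each library left out. Ratios were tested with scipy 1.17.1, and figures drawn with matplotlib 3.10.9.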

Additional observations from a re-analysis of the deposited data

How the results depend on the processing

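Control replicate 2 decided most calls. Of the 10 JAK-STAT genes 0 were called with all 6 libraries, and leaving out 1 library at a time gave 0 to 4 calls, with 4 without control replicate 2. Library weights, which gave control replicate 2 a weight of 0.0137 against 1.9 to 3.64 for the others, also gave 4. Choices made after the data were seen combined leaving out control replicate 2 with length and GC trends removed (4 calls) or with 75th percentile scaling, TMM scaling or quantile normalization (1 call each, Jak1). Of the other pathway genes 4 were called with all libraries, 1 with no filter, 1 with a pseudocount of 5, 11 with no fold threshold, 22 with library weights and 0 to 21 with 1 library left out, 21 of them without control replicate 2. With control replicate 2 left out they were 16 with length and GC trends removed, 17 with 75th percentile scaling, 22 with TMM scaling and 18 with quantile normalization. The log2 difference of Socs2 to Cish was -0.33, turned to 0.04 for FPKM + 1 and ranged from -0.57 to 0.13 with 1 library left out, with 0.13 without control replicate 2. For all genes, 207 were higher and 484 lower with all libraries, 391 and 208 with 75th percentile scaling, 304 and 319 with quantile normalization, 286 and 282 with TMM scaling, 402 and 653 with voom on recovered reads, 1281 and 2157 without control replicate 2, and 0 without any other library. Other causes of these shifts were not tested.

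Same-numbered libraries did not deviate together (r = -0.06, -0.05 and 0.01 for replicates 1, 2 and 3). Control replicate 2 dominated the deviations within the controls, so this check cannot tell whether a shared number marks a shared day or batch. With the replicate block 0 JAK-STAT genes, 0 other pathway genes and 0 genes in all were called by limma (unadjusted p under 0.05 in 3, 25 and 4791), and 0 were called with length and GC trends removed as well. The 5 ratios were as without the block. Depth limits Socs2 most, at 90 to 237 reads per library.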

Other observations

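Among the other SOCS genes, Socs3, a strong inhibitor of gp130 signaling, was chosen after its values were seen. It measured 29.0, 6.52 and 29.3 FPKM in control HSCs against 6.85, 8.08 and 6.78 FPKM after IGF1 (log2 fold change -1.21, standard error 0.56, adjusted p = 0.121 from limma). Without control replicate 2 Socs3 was called lower (-1.88, adjusted p = 3.9e-09). Socs1 lay at 7.78 to 8.86 FPKM in all 6 libraries (0.02, adjusted p = 0.86), and at 0.06 without control replicate 2.

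Cdkn1a, which encodes the cell cycle inhibitor p21, was among the targets in which control replicate 2 lay with the other controls. Its values were 67.1, 69.1 and 67.4 FPKM in control HSCs against 111, 120 and 116 FPKM after IGF1 (0.76, standard error 0.09, adjusted p = 0.0286), short of the fold threshold and chosen after its values were seen.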
